A study of Macaca mulatta with 22 samples.

Results

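The core circadian clock genes were followed through ovulation in single follicles of the rhesus macaque (Macaca mulatta). The set held 9 genes, CLOCK, ARNTL (also called BMAL1), PER2, PER3, CRY2, CIART, NR1D1, NFIL3 and TEF. They were found as every probe set of the Affymetrix rhesus array whose only gene symbol in the platform annotation was one of these names. This gave 14 probe sets of 9 genes, among 52766 probe sets tested and 14132 genes with a symbol of their own. ARNTL, PER2, PER3, NR1D1 and TEF had several probe sets and are described first by the probe set of highest mean intensity, called the brightest.

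The molecular clock is a feedback loop of transcription that runs in most cells of the body. CLOCK and ARNTL pair on E-box elements and switch on the PER and CRY genes, whose proteins return to the nucleus and repress the pair. A further loop adjusts ARNTL, which is repressed by NR1D1 (REV-ERB alpha) and activated by RORA. Another loop acts at D-box elements, which TEF activates and NFIL3 (E4BP4) represses, and CIART (CHRONO) is another repressor of the CLOCK and ARNTL pair. In ovary of rodents, clock genes are known to cycle in follicle cells and to respond to luteinizing hormone.

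Each of the 22 arrays held RNA of a single dominant follicle of a controlled menstrual cycle. There were 6 follicles at 0 h, 4 at 12 h, 4 at 24 h, 4 unruptured at 36 h and 4 ruptured at 36 h, with hours counted from the ovulatory dose of hCG, which acts on the luteinizing hormone receptor. All females received a GnRH antagonist (Acyline) with recombinant FSH and LH, 30 IU each, at 16:00 on day 1 and at 08:00 on day 2, once serum estradiol had reached 100 to 120 pg/ml. The 0 h follicles were removed at 16:00 on day 2 without hCG. The other groups received 1000 IU of recombinant hCG, and ruptured and unruptured follicles at 36 h differ in whether ovulation had taken place. The labels give no age and do not say whether each array came from a separate female, so the spread behind each p-value is that between single follicles and may be partly technical. The sample titles call all of them ovulatory follicles, while the description field of the hCG-treated groups speaks of the corpus luteum in development.

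With hCG given at 16:00, the schedule put collection at 16:00 for the 0 h and 24 h groups and at 04:00 for the 12 h group and both 36 h groups. Hours after hCG and time of day cannot be told apart between 12 h and 0 h, between 24 h and 12 h or between either 36 h group and 24 h. The 24 h and 0 h groups share the hour of the day and differ in time after hCG, and so do either 36 h group and the 12 h group. Ruptured and unruptured follicles share both.

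Values are log2 intensities of deposited RMA values. Levels are compared within a probe set, since brightness also depends on the probe. The groups were compared with limma on all tested probe sets, and a change was called at a Benjamini-Hochberg adjusted p under 0.05. Neither 36 h group was tested against the 0 h group. Of the 14 probe sets, 8 had a mean above that of the median probe set, 4.63. The brightest probe sets of PER2 and PER3 lay below it, and so did the dimmer ones of PER2, PER3, NR1D1 and TEF.

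The tissue was checked against marker lists. Of 12 granulosa markers 10 were measured, and their summed linear intensity was 16425 to 26694 at 0 h, 10125 to 21649 at 12 h, 9085 to 11689 at 24 h, 9332 to 12171 in unruptured and 11476 to 16332 in ruptured 36 h follicles. The sum of 6 of 8 theca markers was 6712 to 10003 at 0 h, 3288 to 5002 at 12 h, 3297 to 4274 at 24 h, 3754 to 4273 in unruptured and 2250 to 2601 in ruptured 36 h follicles. The sum of 9 of 12 macrophage and monocyte markers was 1432 to 2530 at 0 h, 1927 to 4870 at 12 h, 2167 to 4410 at 24 h, 1772 to 3027 in unruptured and 1574 to 3248 in ruptured 36 h follicles. The sum of 5 of 8 smooth muscle and pericyte markers was 7510 to 11078 at 0 h, 11140 to 13991 at 12 h, 12722 to 13042 at 24 h, 10983 to 14708 in unruptured and 12353 to 16148 in ruptured 36 h follicles. The sum of 5 of 7 neutrophil markers was 57.4 to 252 at 0 h and, by group, from 139 to 531 after hCG, and that of 10 endothelial markers was 1027 to 2085 at 0 h and 2132 to 3060 over both 36 h groups. FSHR, FOXL2 and INSL3, defining markers of granulosa and theca cells, were not measured under a symbol of their own. The marker sums thus moved with the groups compared below, though markers of a list did not move alike. From 0 h to 24 h, mean log2 CYP17A1 went from 12.05 to 7.82. The theca markers NR2F2 (11.15 and 11.20) and OGN (10.09 and 9.94) changed less, and so did HHIP, PTCH1 and GLI1. Of granulosa markers, CYP19A1 went from 11.34 to 6.96 and GATM from 11.20 to 11.06. A shift of a sum can thus rest on few genes. The part of cell types in the clock gene results was not tested. In whole follicles, fewer cells of a type and less RNA per cell cannot be told apart. The 12 h replicate 3 array stood apart in RNA quality, with a 3′ minus 5′ index of 0.853 on the control transcripts, against 0.506 to 0.699 on the other 21 arrays.

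Over the 5 groups, 4 of the 14 member probe sets passed the F test, those of NFIL3, TEF, NR1D1 and CRY2, beside 20.1% of all probe sets. NFIL3 had the smallest adjusted p (8.07e-06), followed by TEF (6.32e-05), NR1D1 (0.00289) and CRY2 (0.0122). ARNTL (adjusted p = 0.112), PER2 (0.136), CLOCK (0.142), CIART (0.249) and PER3 (0.532) did not pass. The genes that passed were thus D-box factors, 1 nuclear receptor and 1 cryptochrome. The share of members that passed, 28.6%, was not far from that of all probe sets. Genes that did not pass cannot be called unchanged. ARNTL passed without 12 h replicate 3 (adjusted p = 0.0266), and CLOCK passed without unruptured replicate 3 (adjusted p = 0.0156).

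**Figure D1:**
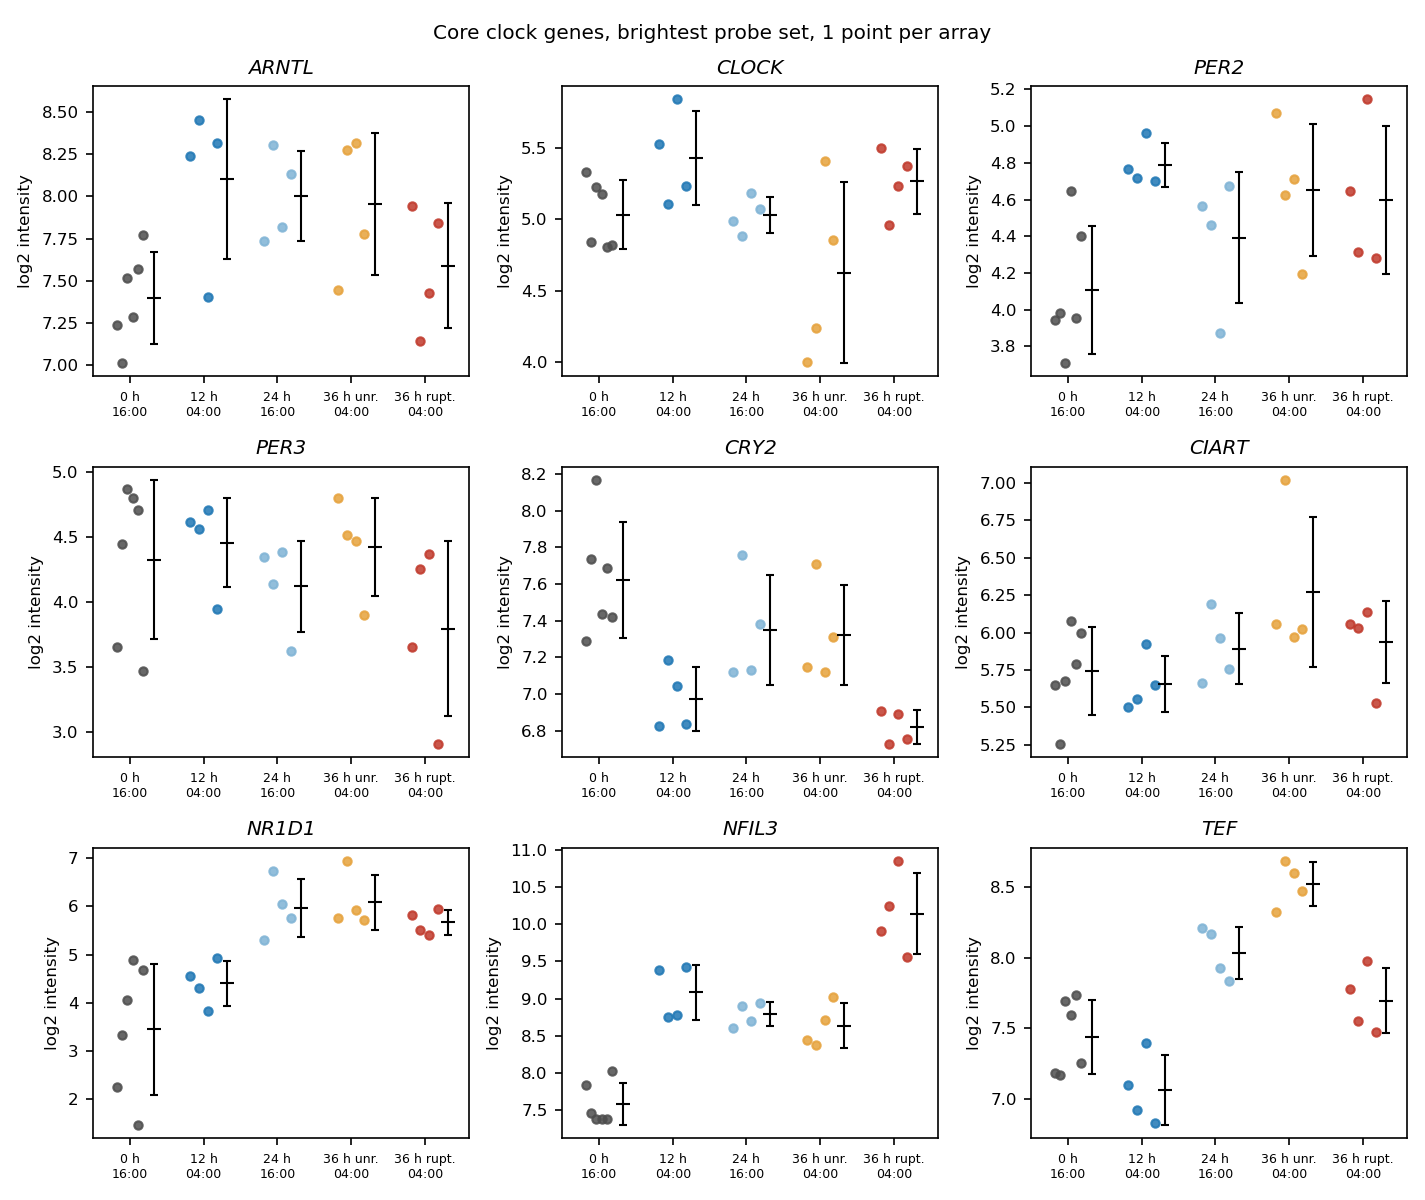
Log2 intensity of the brightest probe set of each core clock gene (vertical axes) in each of the 22 arrays, by group with the scheduled time of day (horizontal axes). Points are arrays and bars show the mean ± SD (n = 6 at 0 h, 4 in each other group). NFIL3 was lowest at 0 h and highest in ruptured follicles, TEF was highest in unruptured follicles, and NR1D1 lay above 5 in every array from 24 h on.

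ARNTL, the activator that binds DNA together with CLOCK, ran from 7.01 to 7.77 at 0 h with a median of 7.40, and measured 8.24, 8.45, 7.41 and 8.32 at 12 h. It measured 7.74, 8.31, 7.82 and 8.13 at 24 h, 7.45, 8.28, 8.32 and 7.77 in unruptured, and 7.94, 7.14, 7.43 and 7.84 in ruptured 36 h follicles. Of the 12 h arrays, 3 lay above every 0 h array, while replicate 3 lay within the 0 h range. The change at 12 h against 0 h was 0.70 ± 0.23 (SE; adjusted p = 0.0652), with a 95% interval from 0.22 to 1.19. Without 12 h replicate 3 the change was 0.94 (adjusted p = 0.0135). It also passed with 16 added to every intensity (adjusted p = 0.0397), among brighter probe sets alone (0.0247) and with a trended and robust variance (0.0297). At 24 h the difference from 0 h was 0.60 ± 0.23 (adjusted p = 0.192). The ruptured follicles averaged 7.59 ± 0.37 and the unruptured ones 7.95 ± 0.42 (SD, n = 4 each), a difference of -0.36 ± 0.25 (adjusted p = 0.447).

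The dimmer ARNTL probe set gave the same picture array by array. Its correlation with the brighter one was 0.946 over the 22 arrays and 0.918 after each group's mean was taken out. It averaged 6.23 ± 0.27 at 0 h (SD, n = 6), 6.90 ± 0.53 at 12 h, 6.82 ± 0.34 at 24 h, 6.81 ± 0.47 among unruptured and 6.39 ± 0.57 among ruptured follicles (n = 4 each), and no comparison was called. The spread of ARNTL within groups was therefore shared by both probe sets. It was also shared by RORA, whose protein activates ARNTL. After removal of the group means, ARNTL and RORA had a Pearson r of 0.75 and a Spearman rho of 0.77 over 22 arrays, which share their labelled RNA. They lay on the same side of the group mean in 17 of 22 arrays, and r was 0.67 without the 2 arrays farthest from the median of ARNTL. Of 120 pairs of clock genes this was the highest r within groups, so it is given as a description.

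**Figure D2:**
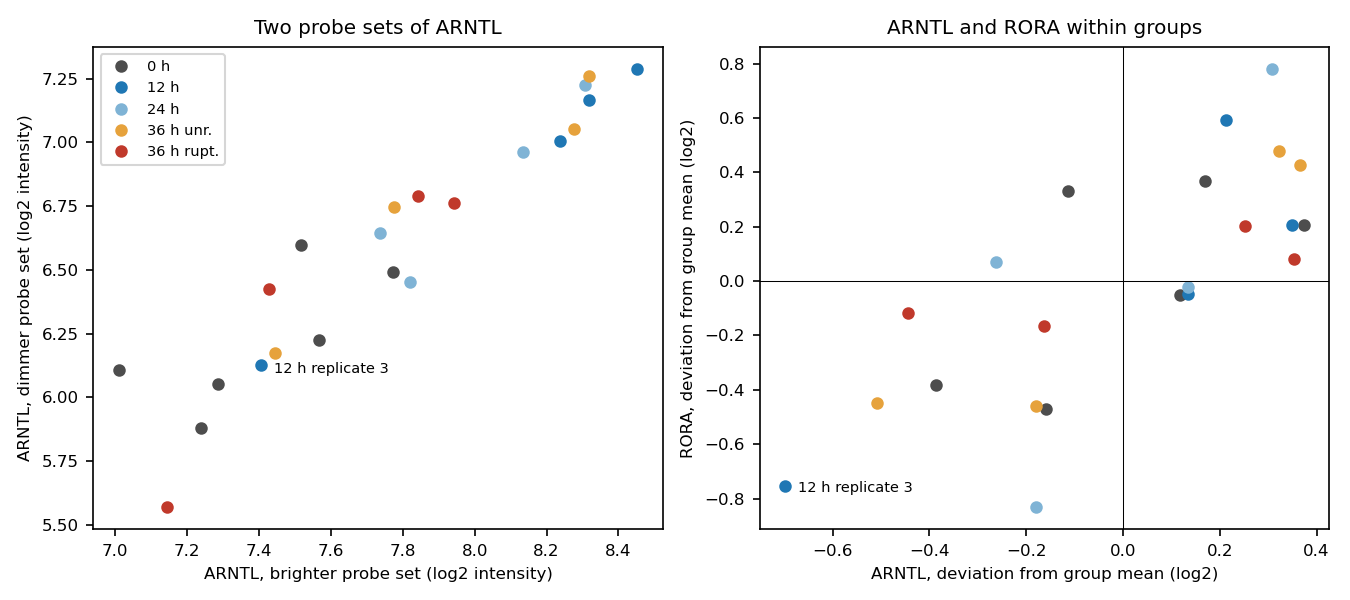
Left, log2 intensity of the dimmer against the brighter ARNTL probe set. Right, deviation of RORA against that of ARNTL from the group mean (log2). Each point is an array, coloured by group. Both ARNTL probe sets followed each other with r = 0.946, and 12 h replicate 3 was the lowest of its group for ARNTL and RORA.

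CLOCK, the partner of ARNTL, ran from 4.81 to 5.33 at 0 h with a median of 5.01, and measured 5.53, 5.10, 5.84 and 5.24 at 12 h. It measured 4.99, 4.88, 5.18 and 5.07 at 24 h, 4.00, 4.24, 5.41 and 4.86 in unruptured, and 5.50, 4.96, 5.23 and 5.37 in ruptured 36 h follicles. The unruptured group was the most spread (SD 0.64), since replicates 1 and 2 were the lowest of all arrays and replicate 3 lay among the 12 h values. CLOCK fell by 0.80 ± 0.25 in unruptured 36 h against 12 h follicles (adjusted p = 0.0443), with groups that overlapped. The call was lost in 6 of the 8 fits that left out an array (12 h replicates 1, 3 and 4, unruptured replicates 1, 2 and 4), with an adjusted p of up to 0.153. It was also lost with only these 8 arrays in the fit (0.247), with array weights (0.066) and after adjustment for the 3′ minus 5′ index (0.118). Without unruptured replicate 3, the difference between ruptured and unruptured follicles was 0.90 (adjusted p = 0.0156), against 0.64 ± 0.25 (adjusted p = 0.115) with all arrays. ARNTL and CLOCK did not follow each other within groups (r = 0.06 over 22 arrays).

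PER2, a repressor of CLOCK and ARNTL, ran from 3.71 to 4.65 at 0 h with a median of 3.97, and measured 4.77, 4.72, 4.96 and 4.70 at 12 h. It measured 4.56, 4.46, 3.87 and 4.67 at 24 h, 5.07, 4.63, 4.71 and 4.19 in unruptured, and 4.65, 4.31, 5.15 and 4.28 in ruptured 36 h follicles. Every 12 h array lay above every 0 h and 24 h array. The change at 12 h against 0 h was 0.68 ± 0.22 and was not called (adjusted p = 0.0569). Without 0 h replicate 4, the highest of its group, it was called (change 0.79, adjusted p = 0.0288). The difference at 24 h against 12 h was -0.40 ± 0.24 (adjusted p = 0.399). The dimmer PER2 probe set did not follow the brighter one (r = -0.18) and held 1 array at -0.27 among 12 h values of 2.48 to 3.84.

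PER3, another period gene, ran from 3.47 to 4.87 at 0 h with a median of 4.58, and measured 4.61, 4.56, 4.70 and 3.95 at 12 h. It measured 4.34, 4.14, 4.39 and 3.63 at 24 h, 4.80, 4.52, 4.47 and 3.90 in unruptured, and 3.66, 4.25, 4.37 and 2.91 in ruptured 36 h follicles. The groups overlapped in every comparison and none was called. The largest difference between successive groups was -0.62 ± 0.35 in ruptured against unruptured follicles (adjusted p = 0.318). Both PER3 probe sets were dim and only weakly alike (r = 0.22), so a change of PER3 was not measurable at this brightness beyond the intervals of the fit, which ran from -1.36 to 0.11 in that comparison.

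CRY2, a cryptochrome that represses CLOCK and ARNTL together with the PER proteins, ran from 7.29 to 8.17 at 0 h with a median of 7.56, and measured 6.83, 7.19, 7.04 and 6.84 at 12 h. It measured 7.12, 7.76, 7.13 and 7.38 at 24 h, 7.15, 7.71, 7.12 and 7.31 in unruptured, and 6.91, 6.73, 6.89 and 6.75 in ruptured 36 h follicles. Every 12 h array lay below every 0 h array, and every ruptured array lay below every 0 h, 24 h and unruptured array. It fell by 0.65 ± 0.17 at 12 h against 0 h (adjusted p = 0.0215), to 0.637 times the 0 h intensity. This call was lost without 12 h replicate 1 or 12 h replicate 4 (adjusted p up to 0.071), with only the 12 h and 0 h arrays in the fit (0.0801) and after adjustment for the 3′ minus 5′ index, where the change was -0.54 (0.103). The differences in ruptured follicles were -0.50 ± 0.19 against unruptured (adjusted p = 0.107) and -0.53 ± 0.19 against 24 h follicles (adjusted p = 0.0897). Neither was called, though the groups did not overlap. Among brighter probe sets alone both passed (adjusted p = 0.0429 and 0.035).

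CIART, a repressor that binds ARNTL, ran from 5.25 to 6.08 at 0 h with a median of 5.73, and measured 5.50, 5.55, 5.92 and 5.65 at 12 h. It measured 5.66, 6.19, 5.96 and 5.75 at 24 h, 6.06, 7.02, 5.97 and 6.03 in unruptured, and 6.06, 6.03, 6.14 and 5.53 in ruptured 36 h follicles. The unruptured follicles all lay above the 12 h ones, by 0.61 ± 0.23 on average (adjusted p = 0.102), and replicate 2 at 7.02 was far above the other 3. CIART was called in no comparison in the fit of all probe sets. Among brighter probe sets alone, its difference in unruptured 36 h against 12 h follicles passed (adjusted p = 0.0413).

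NR1D1, the nuclear receptor that represses ARNTL, was below the median probe set in mean intensity at 0 h and above it from 24 h on. It ran from 1.47 to 4.88 at 0 h with a median of 3.71, and measured 4.55, 4.31, 3.82 and 4.94 at 12 h. It measured 5.29, 6.74, 6.05 and 5.77 at 24 h, 5.75, 6.94, 5.93 and 5.72 in unruptured, and 5.82, 5.51, 5.40 and 5.96 in ruptured 36 h follicles. The 12 arrays of the last 3 groups all lay above the 10 arrays of the first 2 groups, and among themselves the last 3 groups overlapped. NR1D1 rose by 2.51 ± 0.53 at 24 h against 0 h (adjusted p = 0.011), at the same scheduled hour of 16:00. With 16 added to every intensity, which damps changes of dim probe sets, the rise was 1.43 ± 0.25 (adjusted p = 0.00153), so its size depends on how dim values are treated. It was called neither at 24 h against 12 h (1.56 ± 0.58, adjusted p = 0.125) nor in unruptured 36 h against 12 h follicles (1.68 ± 0.58, adjusted p = 0.0772). With 16 added, these changes were 1.08 (adjusted p = 0.0173) and 1.17 (adjusted p = 0.00713). Both were then called. The 0 h group was very spread (SD 1.37), so the size of the rise is poorly fixed, with a 95% interval from 1.40 to 3.62. The dimmer NR1D1 probe set had a mean of 2.89, at percentile 25.2 of all probe sets, and did not share this pattern. Its difference at 24 h against 0 h was -1.04 ± 0.59 (adjusted p = 0.423).

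NFIL3, the repressor at D-box elements, lay above 92.4% of all probe sets in mean intensity. It ran from 7.39 to 8.03 at 0 h with a median of 7.43, and measured 9.38, 8.75, 8.78 and 9.43 at 12 h. It measured 8.60, 8.90, 8.70 and 8.95 at 24 h, 8.44, 8.37, 8.72 and 9.02 in unruptured, and 9.91, 10.25, 10.85 and 9.56 in ruptured 36 h follicles. Every hCG-treated follicle lay above every 0 h follicle, and every ruptured follicle lay above every other array. NFIL3 rose by 1.50 ± 0.23 at 12 h against 0 h (adjusted p = 0.000379), or 2.83-fold. It was still 1.20 ± 0.23 above 0 h at 24 h (adjusted p = 0.00481). It rose again, by 1.50 ± 0.25, in ruptured against unruptured follicles of the same hour (adjusted p = 0.000751). Neither 24 h against 12 h (-0.30 ± 0.25, adjusted p = 0.579) nor unruptured 36 h against 24 h (-0.15 ± 0.25, adjusted p = 0.965) was called. In order of level, ruptured follicles were followed by 12 h, 24 h, unruptured 36 h and 0 h. Ruptured follicles exceeded 12 h follicles by 1.06 ± 0.25 (adjusted p = 0.0352), a call lost in 5 of 8 fits that left out an array (12 h replicates 2 and 3, ruptured replicates 5, 6 and 7), with an adjusted p of up to 0.107. That call was also lost after adjustment for the 3′ minus 5′ index (0.88, adjusted p = 0.206).

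TEF, the activator at D-box elements, took another course. It ran from 7.17 to 7.74 at 0 h with a median of 7.43, and measured 7.10, 6.93, 7.40 and 6.84 at 12 h. It measured 8.21, 8.17, 7.93 and 7.83 at 24 h, 8.32, 8.68, 8.59 and 8.47 in unruptured, and 7.78, 7.55, 7.98 and 7.47 in ruptured 36 h follicles. All 24 h arrays lay above all arrays of the earlier groups, and all unruptured ones lay above all others. TEF rose by 0.97 ± 0.17 at 24 h against 12 h (adjusted p = 0.00206), or 1.95-fold, and this was not called with only the arrays of these groups in the fit (adjusted p = 0.0647). It was 1.45 ± 0.17 higher in unruptured 36 h than in 12 h follicles (adjusted p = 6.99e-05), at the same scheduled hour of 04:00. It fell by 0.82 ± 0.17 in ruptured against unruptured follicles (adjusted p = 0.00444), to 0.566 times their intensity. The difference at 12 h against 0 h was -0.37 ± 0.16 (adjusted p = 0.157). The rise of 0.59 ± 0.16 at 24 h against 0 h (adjusted p = 0.0394) was lost in 7 of 10 fits that left out an array (0 h replicates 1, 2 and 6 and each 24 h replicate), with an adjusted p of up to 0.131. The dimmer TEF probe set was called nowhere, its SD in groups reached 1.55, and it was weakly like the brighter one (r = 0.24).

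At the first step, 12 h against 0 h, 2 of 14 member probe sets were called, NFIL3 higher and CRY2 lower, beside 9.33% of all probe sets. The median change of the 9 genes was 0.40, against 0.00 over all probe sets. At 24 h against 12 h 1 of 14 was called, TEF higher, beside 6.88%. In unruptured 36 h against 24 h follicles limma called 0 of 14, beside 0.00379% of all probe sets, which was 2 probe sets in all, and 2 members had an unadjusted p under 0.05. In ruptured 36 h against 24 h follicles 1 of 14 was called, NFIL3 with a rise of 1.35 ± 0.25 (adjusted p = 0.00178), beside 9.31%. That call was lost with only these 8 arrays in the fit (adjusted p = 0.0549). In ruptured against unruptured follicles 2 of 14 were called, NFIL3 higher and TEF lower, beside 9.82%. The fall of TEF was not called with only these 8 arrays (adjusted p = 0.0546). These shares of members, 7.14% for 1 and 14.3% for 2, lay near the shares of all probe sets at the steps at 12 h, at 24 h and at rupture, so the number of clock genes called does not set them apart from other probe sets.

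**Figure D3:**
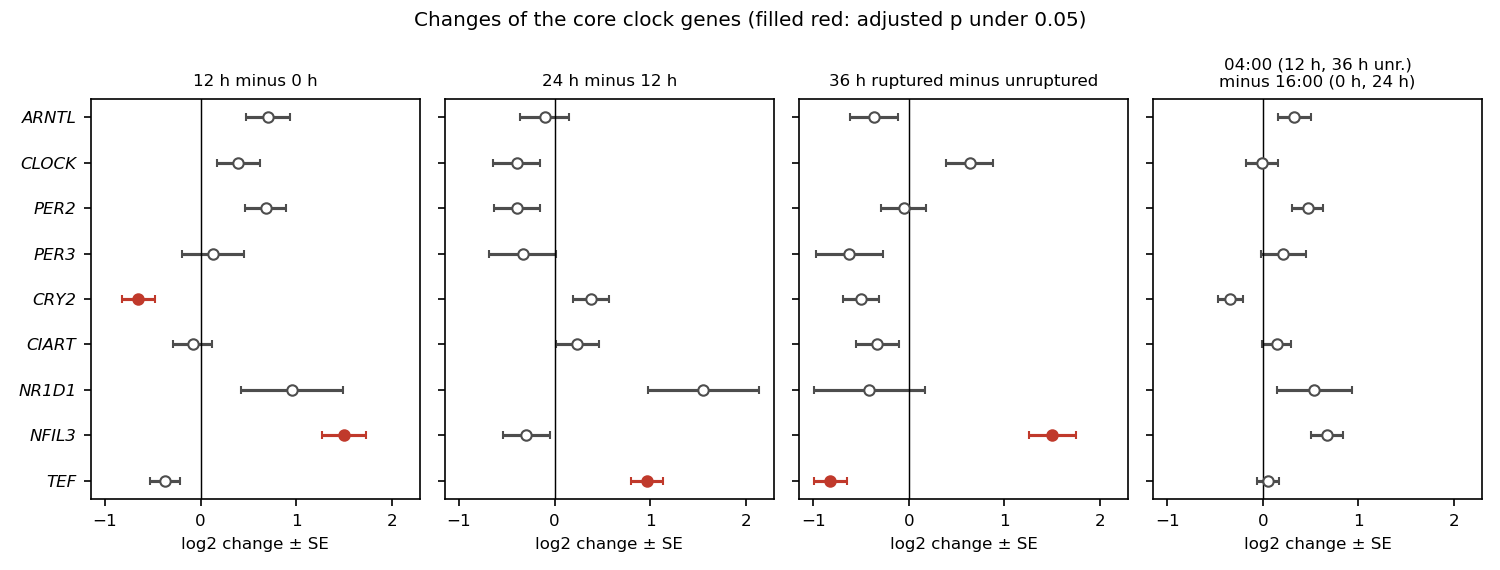
Log2 change ± SE of the brightest probe set of the 9 core clock genes (rows) in 4 comparisons (panels). Filled red points had an adjusted p under 0.05 and open points did not. NFIL3 was 1.50 higher both at 12 h and after rupture, and TEF was 0.97 higher at 24 h and 0.82 lower after rupture. No gene was called in the contrast of 04:00 with 16:00, whose groups also differ in hours after hCG.

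Follicles collected at the same hour of the day were compared next. At 24 h against 0 h, both at 16:00, 3 of 14 member probe sets were called, NR1D1, NFIL3 and TEF, all higher, beside 3.36% of all probe sets. For this contrast the median change of the 9 genes was 0.29, against 0.00 over all probe sets. In unruptured 36 h against 12 h follicles, both at 04:00, 2 of 14 were called, TEF higher and CLOCK lower, beside 9.82%. In ruptured 36 h against 12 h follicles 1 of 14 was called, NFIL3 higher, beside 1.6%. With only the 0 h and 24 h arrays in the fit, the calls of NR1D1 (adjusted p = 0.103) and TEF (adjusted p = 0.11) were lost. With only the 12 h arrays and those of the 36 h group compared with them, the calls of CLOCK (0.247) and of NFIL3 in ruptured follicles (0.325) were lost. The fall of CLOCK was also lost in 6 of 8 fits that left out an array, as given above. The call of NFIL3 at 24 h and that of TEF in unruptured 36 h against 12 h follicles were kept with only the groups compared.

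A contrast of both unruptured night-time groups with both afternoon groups gave the mean difference between 04:00 and 16:00 collection. It set the mean of 12 h and unruptured 36 h follicles against the mean of 0 h and 24 h follicles. It averages over both days, so a change on a single day can carry it. Its afternoon side holds the follicles without hCG, so time of day cannot be told apart from hCG treatment in it. limma called 0 of 14 member probe sets, 3 had an unadjusted p under 0.05, and 1.19% of all probe sets were called. NFIL3 came nearest, with 0.67 ± 0.17 (adjusted p = 0.056), though it was no higher in unruptured 36 h (mean 8.64) than in 24 h follicles (mean 8.79). It passed in 6 of the other settings tried, with an adjusted p of 0.0155 to 0.0496. The difference of PER2 was 0.47 ± 0.16 (adjusted p = 0.175), and the difference of CRY2 was -0.34 ± 0.13 (adjusted p = 0.225). The interval of ARNTL ran from -0.03 to 0.69 and that of CLOCK from -0.35 to 0.34. With ruptured in place of unruptured follicles, NFIL3 (1.43 ± 0.17, adjusted p = 1.35e-05), CRY2 (-0.59 ± 0.13, adjusted p = 0.00311) and TEF (-0.36 ± 0.12, adjusted p = 0.0399) passed, beside 16.9% of all probe sets. That contrast also holds the changes at rupture.

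The second comparison of day with night asked whether the step from 24 h to unruptured 36 h follicles repeated the step from 0 h to 12 h, both of which lead from 16:00 to 04:00. For 2 of 14 member probe sets the steps differed, beside 3.74% of all probe sets. NFIL3 differed by 1.50 in the first step and by -0.15 in the second, and the steps themselves differed by -1.65 ± 0.33 (adjusted p = 0.0104). For TEF the first step was -0.37 and the second 0.48, and they differed by 0.85 ± 0.23 (adjusted p = 0.0455). The TEF call was lost in 13 of 18 fits that left out an array (0 h replicates 3, 4 and 5, 12 h replicates 1, 2 and 4, every 24 h replicate and unruptured replicates 2, 3 and 4), with an adjusted p of up to 0.107. The adjusted p of TEF was 0.0534 after adjustment for the 3′ minus 5′ index and 0.0535 with only the 18 arrays compared. In the fit of these 18 arrays the dimmer NR1D1 probe set passed (2.42 ± 0.64, adjusted p = 0.0491), which it did not with all arrays (0.141).

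**Figure D4:**
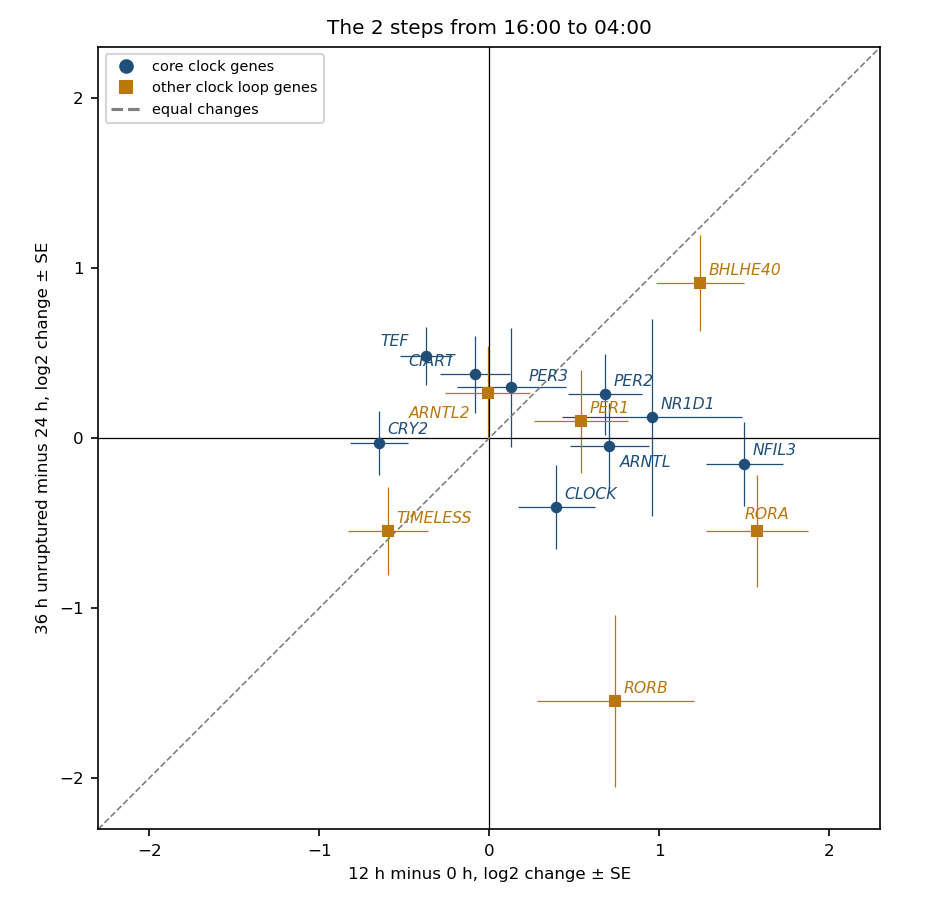
Log2 change ± SE of core clock genes (circles) and other clock loop genes (squares), brightest probe set, from 0 h to 12 h (horizontal axis) and from 24 h to unruptured 36 h (vertical axis). The dashed line marks equal changes. BHLHE40 lay near the line with 1.24 and 0.91, while NFIL3 (1.50 and -0.15) and RORA (1.57 and -0.55) moved at the first step without a like change at the second. BHLHE41, which was near the bottom of the array, is not shown.

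Other genes of the same loops were measured for 7 of 14 listed. CRY1, NPAS2, NR1D2, DBP, HLF and CIPC were among those not measured under a symbol of their own. By the brightest probe set, 6 of these 7 genes passed the F test, all but BHLHE41, beside 20.1% of all probe sets. That of RORB was lost in 14 of the 22 fits that left out an array (adjusted p up to 0.094), and that of ARNTL2 in 4 of them (24 h replicate 1, ruptured replicates 5, 6 and 7), with an adjusted p of up to 0.101. At 12 h against 0 h 2 of 7 were called, both higher, beside 4.28% of all probe sets higher. In ruptured against unruptured follicles 3 of 7 were called, all higher, beside 4.83% higher. Here and in the lists below, counts take the brightest probe set of each gene. The shares are over all 52766 probe sets, dim ones and 27449 without a symbol included, so count and share are not fully alike.

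BHLHE40 (DEC1), a repressor of CLOCK and ARNTL that acts at E-boxes, was the loop gene of these 7 called when 12 h and unruptured 36 h follicles were set against 0 h and 24 h follicles. With ruptured follicles added to the night-time groups, TIMELESS (-0.58, adjusted p = 0.0262) and the dimmer RORA probe set (0.96, adjusted p = 0.0429) passed as well, and so did NFIL3 (1.10, adjusted p = 2.04e-04) and CRY2 (-0.45, adjusted p = 0.0192) of the core genes, beside 9.16% of all probe sets. It ran from 6.94 to 7.75 at 0 h with a median of 7.06, and measured 8.02, 8.31, 9.23 and 8.11 at 12 h. It measured 7.21, 7.47, 6.98 and 7.45 at 24 h, 8.02, 8.04, 8.24 and 8.45 in unruptured, and 9.01, 9.68, 9.53 and 8.32 in ruptured 36 h follicles. All 12 night-time arrays lay above all 10 afternoon arrays. BHLHE40 rose by 1.24 ± 0.26 at 12 h against 0 h (adjusted p = 0.00477) and fell by 1.14 ± 0.28 at 24 h against 12 h (adjusted p = 0.0189). The fall was lost without 12 h replicate 3, 24 h replicate 1 or 24 h replicate 3 (adjusted p up to 0.0618), and with only these 8 arrays in the fit (0.114). In unruptured 36 h against 24 h follicles the difference was 0.91 ± 0.28 and was not called (adjusted p = 0.642), in a comparison in which only 2 probe sets of the array were called. The contrast of night with afternoon also holds hours after hCG, as given above. In BHLHE40 the mean of 12 h and unruptured 36 h follicles exceeded that of 0 h and 24 h follicles by 1.08 ± 0.19 (adjusted p = 0.0102). For its dimmer probe set the difference was 0.73 ± 0.13 (adjusted p = 0.011). After adjustment for the 3′ minus 5′ index these were 0.92 (adjusted p = 0.053) and 0.66 (adjusted p = 0.0539). With replicate numbers added to the fit as a block, neither was called (adjusted p = 0.0667 and 0.086). In ruptured against unruptured follicles it rose by 0.95 ± 0.28 (adjusted p = 0.0397), which was lost in 7 of 8 fits that left out an array (every unruptured replicate and ruptured replicates 5, 6 and 7), while the dimmer probe set rose by 1.01 ± 0.20 (adjusted p = 0.00268). With only the 8 arrays of 36 h in the fit, neither was called (0.154 and 0.0544). Against 24 h follicles the ruptured ones were 1.86 ± 0.28 higher in BHLHE40 (adjusted p = 0.000438).

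RORA, the nuclear receptor that activates ARNTL, ran from 5.03 to 5.87 at 0 h with a median of 5.58, and measured 7.02, 7.28, 6.32 and 7.67 at 12 h. It measured 6.62, 7.33, 5.72 and 6.53 at 24 h, 5.55, 6.48, 6.43 and 5.54 in unruptured, and 7.01, 6.81, 6.77 and 7.14 in ruptured 36 h follicles. The 12 h and ruptured follicles lay above every 0 h follicle, while 24 h and unruptured follicles overlapped with them. RORA rose by 1.57 ± 0.30 at 12 h against 0 h (adjusted p = 0.00253), and its dimmer probe set rose by 2.28 ± 0.43 (adjusted p = 0.0022). Its steps from 16:00 to 04:00 differed by -2.12 ± 0.45 (adjusted p = 0.0125), which was not called with replicate numbers added to the fit as a block (0.0796). RORA fell by 1.07 ± 0.33 in unruptured 36 h against 12 h follicles (adjusted p = 0.0461), a call lost in 5 of 8 fits that left out an array (12 h replicates 1, 2 and 4, unruptured replicates 1 and 4) and with only these 8 arrays in the fit (0.164).

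PER1, a period gene that responds quickly to cAMP signals, ran from 6.93 to 7.72 at 0 h with a median of 7.23, and measured 8.01, 7.46, 8.42 and 7.37 at 12 h. It measured 8.50, 8.50, 8.37 and 8.00 at 24 h, 8.15, 8.81, 8.19 and 8.61 in unruptured, and 8.02, 9.18, 8.95 and 7.64 in ruptured 36 h follicles. The 24 h and unruptured follicles lay above every 0 h follicle, and the ruptured ones were widely spread (SD 0.74). PER1 rose by 1.07 ± 0.28 at 24 h against 0 h (adjusted p = 0.0375), a call lost in 9 of 10 fits that left out an array (all but the one without 0 h replicate 6), with an adjusted p of up to 0.109. RORB, a relative of RORA, had 1 probe set, which lay below the median probe set with a mean of 3.88. It was 1.75 ± 0.50 higher in ruptured than in unruptured follicles (adjusted p = 0.0331). ARNTL2, a relative of ARNTL, was 0.93 ± 0.27 higher (adjusted p = 0.0349). The RORB call was lost in 5 of 8 fits that left out an array (unruptured replicates 1 and 2, ruptured replicates 5, 7 and 8), and that of ARNTL2 in 6 of 8 (unruptured replicates 1, 2 and 3, ruptured replicates 5, 6 and 7). Neither passed with only the 8 arrays of 36 h in the fit (0.142 for RORB and 0.11 for ARNTL2). Against 24 h follicles, ARNTL2 was 1.20 higher in ruptured ones (adjusted p = 0.00816). That call was kept in all 8 fits that left out an array, but lost with only the groups compared in the fit (0.0619). The second brightest ARNTL2 probe set was 1.56 higher (adjusted p = 0.0437), a call lost in 7 of 8 such fits. TIMELESS averaged 5.86 ± 0.39 at 0 h (SD, n = 6), 5.27 ± 0.31 at 12 h, 5.32 ± 0.41 at 24 h, 4.78 ± 0.39 among unruptured and 4.99 ± 0.30 among ruptured follicles (n = 4 each), with an adjusted p of 0.0161 in the F test. It was not called in the comparisons of 2 groups that were made. Its widest gap in means, between 0 h and unruptured follicles, was not among them. BHLHE41 lay near the bottom of the array, with a mean of 2.25 for its brighter probe set.

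**Figure D5:**
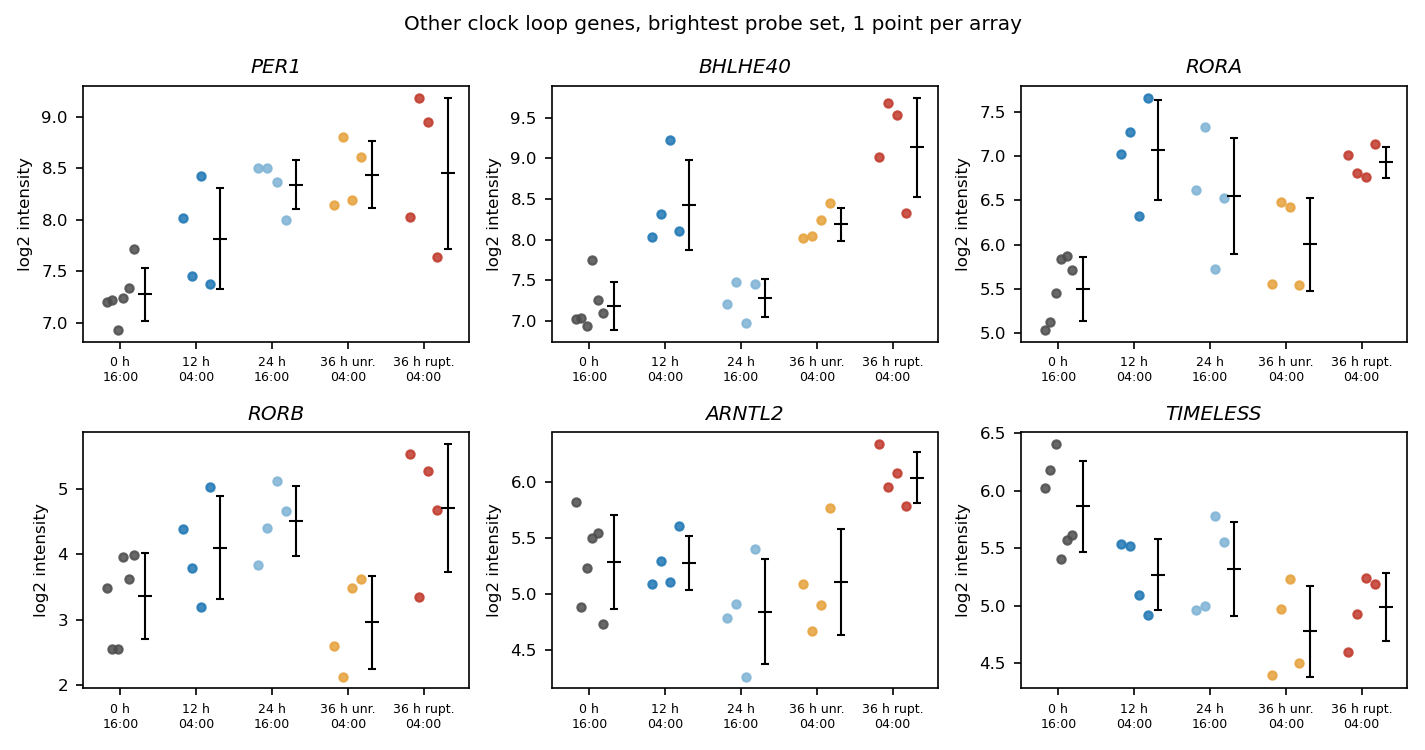
Log2 intensity of the brightest probe set of 6 other clock loop genes (vertical axes) in each of the 22 arrays, by group with the scheduled time of day (horizontal axes). Points are arrays and bars show the mean ± SD (n = 6 at 0 h, 4 in each other group). BHLHE40 was higher in all 04:00 arrays than in all 16:00 arrays, and RORA was above its 0 h range at 12 h and in ruptured follicles.

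Of 19 genes listed as outputs of the clock 17 were measured, and 0 were called between night and afternoon, beside 1.19% of all probe sets. A count of 0 is near that share and does not set these genes apart. At 12 h against 0 h 2 were higher and 3 lower, beside 4.28% of all probe sets higher and 5.05% lower, with a median change of -0.05. CDKN1A, a cell cycle inhibitor, rose by 1.11 ± 0.25 (adjusted p = 0.0083). POR, the electron donor of microsomal P450 enzymes, fell by 0.81 ± 0.15 (adjusted p = 0.00186). KLF11, a Krüppel-like factor, fell by 1.00 ± 0.19 (adjusted p = 0.00272), and ALAS1, the first enzyme of haem synthesis, fell by 1.00 ± 0.26 (adjusted p = 0.0206). The ALAS1 call was lost without 12 h replicate 2 or 12 h replicate 3 (adjusted p up to 0.0765) and after adjustment for the 3′ minus 5′ index (-0.75, adjusted p = 0.113). In ruptured against unruptured follicles 4 were higher and 5 lower, beside 4.83% and 4.99%, with a median change of 0.17. Among the lower genes, KLF15, a Krüppel-like factor that responds to glucocorticoids, fell by 1.42 ± 0.17 (adjusted p = 6.44e-05) and HIF3A, a hypoxia-inducible factor subunit, fell by 2.05 ± 0.30 (adjusted p = 0.000286). ALAS1 rose by 1.25 ± 0.29 (adjusted p = 0.0086) and CDKN1A by 1.11 ± 0.28 (adjusted p = 0.0151), the second of which was lost without unruptured replicate 1 or ruptured replicate 7 (adjusted p up to 0.0617). Neither rise passed with only the 8 arrays of 36 h in the fit (0.106 for ALAS1 and 0.112 for CDKN1A). At 24 h against 0 h 4 were higher and 2 lower, beside 1.66% and 1.69%, with a median change of 0.00.

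The genes most like each member over the 22 arrays were sought among 15373 probe sets above the median brightness, by Pearson r. NFIL3 was followed most closely by EML1 (r = 0.95), VMP1 (0.93) and ADAMTS1 (0.92), a protease known for its part in ovulation. TEF was followed by MXRA8 (0.93), PSMC4 (0.92) and YPEL3 (0.91). CRY2 had ZBTB4 (0.84), RBFOX1 (0.84) and FAM161A (0.83), and NR1D1 had MAOA (0.83), POLD4 (0.82) and PPP3CC (0.81). The other 5 members had no gene above 0.80. The highest r was 0.78 for ARNTL with MOB3B, 0.77 for CLOCK with POP1, 0.76 for CIART with RUFY3, 0.75 for PER2 with MAPK13 and 0.75 for PER3 with NET1. These r values also hold the differences between groups, and all genes of an array share its RNA. Within groups, TEF and NFIL3, which act at the same elements, had an r of -0.11 over the 22 arrays.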

How the data were processed

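Each array has 1 deposited intensity for each probe set, made with RMA per the submitters' processing notes, which name no version. The values ran from 0.0361 to 15137 on a linear scale and were converted to log2. After removal of 99 control probe sets, 52766 were fitted with group means of all 22 arrays in limma 3.58.1 (R 4.3.3; lmFit, eBayes), with two-sided contrasts and Benjamini-Hochberg adjustment over all of them. Of these, 24956 had 1 platform symbol, 361 several and 27449 none. The 9 member gene IDs carried the same symbols in the RefSeq table given for names. Members, lists and contrasts were chosen with earlier results of these data known. Every member is given. From each other list, the rule names up to 4 called genes with the largest change at 12 h, at rupture and at night. Loop genes are described beyond that rule, though not every probe set and comparison of them is given. No array repeated another. No batch or detection call was given. The fit was tested on simulated data. Promoter motifs were not analysed here. Alternatives were an offset of 16, a brightness filter, only the groups compared, array weights, another variance model, quantile normalization, an RNA quality covariate, a replicate block, other night-time groups and each array left out.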

Additional observations from a re-analysis of the deposited data

Results flagged for a closer look

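Arrays that stood far from the rest of their group were sought in 135 sets of values (27 probe sets of clock loop genes in 5 groups), and 6 had one. Chance marks about 1 in 20 such sets. CIART measured 7.02 in unruptured replicate 2, against 5.97 to 6.06 in the other unruptured follicles, and NR1D1 measured 6.94 in the same array, against 5.72 to 5.93. The dimmer NR1D1 probe set measured 3.60 in unruptured replicate 1, against 4.08 to 4.15. The dimmer TEF probe set measured 1.64 in 0 h replicate 6, against 3.82 to 4.80 in the other 0 h follicles. The dimmer BHLHE41 probe set measured -1.13 in the same array, against 2.35 to 3.98. The dimmer TIMELESS probe set measured -0.18 in unruptured replicate 1, against 2.57 to 3.02.

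For NFIL3, TEF and RORA the step from 24 h to unruptured 36 h differed from the step from 0 h to 12 h by a test of the difference itself. The difference between steps was -1.65 for NFIL3 (adjusted p = 0.0104) and 0.85 for TEF (adjusted p = 0.0455). It was -2.12 for the brighter RORA probe set (adjusted p = 0.0125) and -3.01 for the dimmer one (adjusted p = 0.0126). With the replicate block, the calls of both RORA probe sets (0.0796 and 0.0777) and of TEF (0.165) were lost. The TEF call was also lost in 13 of 18 fits that left out an array.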

How the results depend on the processing

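Counts of called member probe sets are given here for settings that moved them by more than 1.5 times. The share of all probe sets called under each setting is not set beside them here, so a general shift of calls cannot be told from one of the members. With 16 added before log2 they were 2 at 24 h against 12 h, 2 in ruptured 36 h against 12 h and 1 for night against afternoon. The brightness filter left 8 of the 14 member probe sets. Among probe sets above the median brightness only, the counts were 2 in ruptured 36 h against 24 h, 4 in ruptured against unruptured, 4 in unruptured 36 h against 12 h, 2 in ruptured 36 h against 12 h and 1 for night. With only the groups compared in the fit, the counts of the 14 were 1 at 12 h, 0 at 24 h against 12 h, 0 in ruptured 36 h against 24 h, 1 in ruptured against unruptured, 1 at 24 h against 0 h, 1 in unruptured 36 h against 12 h, 0 in ruptured 36 h against 12 h and 1 for night. Array weights gave 1 in unruptured 36 h against 12 h and 1 for night, trended and robust variance 2 in ruptured 36 h against 12 h and 1 for night, and quantile normalization 1 for night. Adjustment for the 3′ minus 5′ index gave 1 at 12 h, 1 in unruptured 36 h against 12 h, 0 in ruptured 36 h against 12 h and 1 for the difference between steps. The deviations of 24 same-numbered pairs of arrays correlated from -0.179 to 0.173, with 1 pair over 0.1. These values cannot show whether same-numbered arrays shared a female, since a small shared effect would also leave them low. The replicate block gave 1 at 12 h, 1 at 24 h against 0 h, 1 in unruptured 36 h against 12 h and 1 for the difference between steps. No paired analysis was possible for ruptured follicles because their numbers 5 to 8 are shared with no other hCG-treated group. Night against afternoon gave 3 with ruptured in place of unruptured follicles and 2 with all 3 night-time groups. With each array left out in turn, counts ran from 1 to 4 at 12 h, from 2 to 3 at 24 h against 0 h, from 0 to 1 for night, from 1 to 2 for the difference between steps, from 4 to 5 in the F test, from 1 to 2 in unruptured 36 h against 12 h, from 0 to 1 in ruptured 36 h against 12 h and from 2 to 3 in ruptured against unruptured, and stayed at 1, 0 and 1 in the other 3. The cause of these shifts was not tested, apart from the fewer arrays or probe sets some settings hold. Over all clock loop genes and other named genes, 440 of 505 values of called changes kept their call under other settings and 65 lost it, and with an array left out 679 of 822 kept it and 143 lost it, with 0 reversed in both. The fit of only the groups compared lost 30 of the 57 called changes it could refit, the replicate block 17 of 33, the adjustment for the index 15 of 69 and array weights 3 of 69. Array numbers of 4 to 6 a group limit precision. No detection call tells whether the dim probe sets of PER2, PER3, TEF, NR1D1, RORB, ARNTL2, TIMELESS and BHLHE41 carried signal.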

Other observations

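Genes of the immediate early and cAMP response were measured for 12 of 19 listed, and those called at 12 h and at rupture were all higher. At 12 h against 0 h 4 of 12 were called, beside 9.33% of all probe sets, with a median change of 0.82 against 0.00 over all probe sets. JUNB, a subunit of AP-1, rose by 1.86 ± 0.40 (adjusted p = 0.00547), EGR2, a zinc finger factor, by 1.77 ± 0.53 (adjusted p = 0.0428) and FOSL2, another AP-1 subunit, by 0.97 ± 0.21 (adjusted p = 0.00538). IER2 rose by 0.75 ± 0.21 (adjusted p = 0.0305). Its call was lost in 6 of 10 fits that left out an array (adjusted p up to 0.103) and after adjustment for the 3′ minus 5′ index (0.0629). The EGR2 call was lost in 9 of 10 fits that left out an array (all but the one without 0 h replicate 1), with an adjusted p of up to 0.153, and after adjustment for the 3′ minus 5′ index (0.131). In ruptured against unruptured follicles 7 of 12 were called, beside 9.82% of all probe sets, with a median change of 1.57. NR4A1, an orphan nuclear receptor, rose by 3.21 ± 0.54 (adjusted p = 0.000888), EGR2 by 2.57 ± 0.58 (adjusted p = 0.00839), JUNB by 2.54 ± 0.44 (adjusted p = 0.00106) and SIK1, a kinase induced by cAMP, by 2.17 ± 0.54 (adjusted p = 0.0142), which was lost without ruptured replicate 7 (0.0535). With only the 8 arrays of 36 h in the fit, JUNB (0.0593), EGR2 (0.127) and SIK1 (0.156) did not pass. At 24 h against 0 h 1 of 12 was called, higher, beside 3.36%.

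Enzymes that modify clock proteins were measured for 18 of 22 listed. At 12 h against 0 h 1 was higher and 2 lower, beside 4.28% of all probe sets higher and 5.05% lower. HUWE1, a ubiquitin ligase, fell by 1.20 ± 0.23 (adjusted p = 0.00268), BTRC, the ligase subunit that marks PER proteins for breakdown, fell by 0.48 ± 0.14 (adjusted p = 0.0341), and CSNK1A1, a casein kinase, rose by 0.38 ± 0.10 (adjusted p = 0.0188). The BTRC call was lost in 7 of 10 fits that left out an array (0 h replicates 1, 3, 4 and 6, 12 h replicates 1, 2 and 4), with an adjusted p of up to 0.121, and that of CSNK1A1 without 12 h replicate 4 (0.0525). In ruptured against unruptured follicles 1 was again higher and 2 lower, beside 4.83% and 4.99%. BTRC fell by 0.58 ± 0.15 (adjusted p = 0.0201), PRKAA1, a subunit of AMP-activated kinase, fell by 0.47 ± 0.14 (adjusted p = 0.0409), and CSNK1A1 rose by 0.35 ± 0.11 (adjusted p = 0.0425). The calls at rupture were lost without unruptured replicate 4 or ruptured replicate 7 for BTRC (up to 0.0774), in 6 of 8 fits for PRKAA1 (unruptured replicates 1, 3 and 4, ruptured replicates 5, 7 and 8; up to 0.123) and in 7 of 8 for CSNK1A1 (all but the one without ruptured replicate 6; up to 0.132), and none of the 3 passed with only the 8 arrays of 36 h in the fit (0.186 to 0.272).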
